A study of Caenorhabditis elegans with 16 samples.

Results

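Untreated germline tumors dissected from Caenorhabditis elegans adults were profiled by sequencing of total RNA after depletion of ribosomal RNA. They form the control group of a study of the transcription factor LAG-1 and are 4 of its 16 libraries, control 1 to control 4. The animals were 1-day-old adults of the Bristol strain, raised from synchronised larvae for 48 h at 25 °C, and received auxin for 0 h. The remaining libraries, from animals on 1 mM auxin for 2 h, for 4 h and for 48 h (4 each), are not compared here. All animals, controls included, carried glp-1 allele ar202, gld-2 allele q497, lag-1 allele oz536oz537, gld-1 allele q485 and the transgene ieSi64[gld-1p::tir1::mRuby], in which the gld-1 promoter drives the auxin receptor TIR1 fused to mRuby. What the lag-1 allele alters is not given in the labels. No library without these alleles was used, so the levels of gld-1, gld-2, glp-1 and lag-1 transcripts below do not check them. The series speaks of biological replicates without saying how each was obtained, so the spread between libraries may be partly technical.

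From the deposited table of 46536 genes, the 20112 protein-coding genes were kept and ranked by their median level over the 4 libraries. Levels are in CPM, the reads of a gene scaled to 1000000 reads of the library. A gene counts as detected at a median of 1 CPM or more, and the rank follows CPM, which also rises with gene length. Where genes are set against each other, the levels are divided by exon length and given as CPM per kb. Values of 4 libraries are given in the order control 1, control 2, control 3 and control 4. Members and lists were chosen for their known roles with earlier results of these data known.

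In the worm germline, GLP-1, a Notch receptor, is activated by ligands on the somatic distal tip cell and acts through LAG-1 to keep germ cells dividing. GLD-1 and GLD-2 belong to RNA-regulating pathways that send germ cells into meiosis, and without them germ cells keep dividing and form a tumor. The wild-type hermaphrodite germline goes on from meiotic prophase to make sperm and then oocytes. The germline also keeps most of the X chromosome silent.

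The libraries held 29808921, 31176381, 32708756 and 29120567 counted reads, of which 12543061, 19511989, 14423158 and 18252730 lay in protein-coding genes. Residual ribosomal RNA took 53.3% and 51.7% of controls 1 and 3, against 33.9% and 33.96% of controls 2 and 4. Deposited CPM differed along the same line: among the 4779 genes at 10 CPM or more, controls 1 and 3 both lay below controls 2 and 4 for 3977 genes (83.2%) and above them for 331 (6.93%). When each library was rescaled to 1000000 protein-coding reads (rescaled CPM), the split was nearly even, with 2102 genes (43.98%) below and 1880 (39.3%) above. The order of libraries below is on deposited CPM unless rescaled CPM is named. The median ratio of the highest to the lowest library was 1.62 in CPM and 1.35 in rescaled CPM. Across protein-coding genes, Pearson's r of log2(CPM + 1) lay between 0.992 and 0.999 for the 6 pairs of libraries, which describes genes of these libraries and not independent replicates. To look for a library deposited more than once, the reads of each pair were compared. Chi-square per degree of freedom ran from 8.28 for controls 2 and 4 to 224 for controls 1 and 2. A count of 0 in all 4 libraries allows a level of up to 0.0244 CPM (3 reads of 122814625), and in 1 library up to 0.0917 to 0.103 CPM. These limits cover counting error only, since the reads carry no molecular identifiers.

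Gene length separated the same pairs of libraries. After rescaling to protein-coding reads, the longest 1 of 5 length groups stood apart from the shortest by -0.59, 0.56, -0.44 and 0.46 (log2, each library against the mean of the 4). Long genes were therefore low in controls 1 and 3 and high in controls 2 and 4, on a scale that leaves ribosomal RNA out. The source of this split was not tested.

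**Figure D1:**
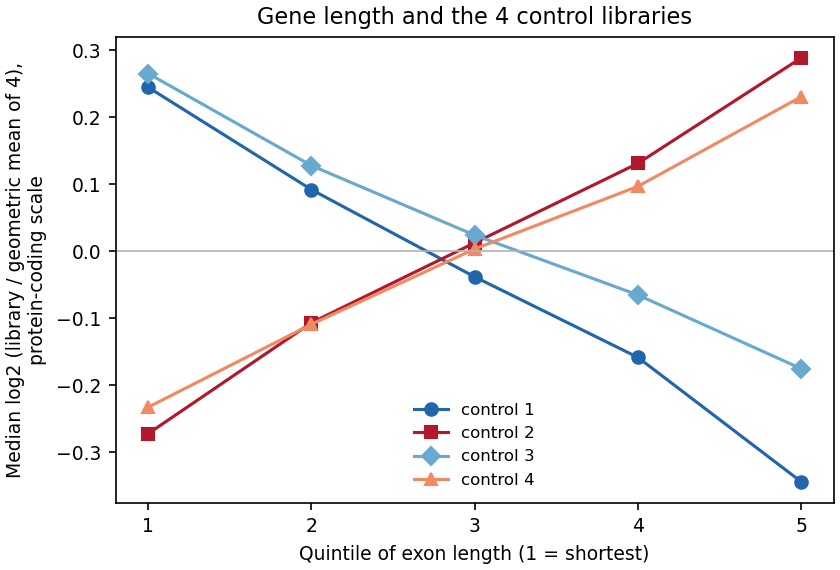
Median log2 ratio of each control library to the geometric mean of the 4 (y axis, levels rescaled to protein-coding reads) for 5 groups of genes ordered by exon length (x axis, 1 is the shortest). Controls 1 and 3 fall with length and controls 2 and 4 rise with it, with differences between the longest and shortest groups of -0.59, 0.56, -0.44 and 0.46.

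Of the 20112 protein-coding genes, 6667 (33.1%) were detected at a median of 1 CPM or more, and 6254 reached that level in all 4 libraries. Counts of detected list members below are to be read beside this 33.1%. A median of 10 CPM was reached by 4779 genes (23.8%) and a median of 100 CPM by 1088 (5.41%). Below 1 CPM lay 13445 genes, of which 8711 had at least 1 read and 4734 (23.5% of all) had none in any library. The number detected per library was 6507, 6811, 6510 and 6754. The 100 highest genes held between 28.7% and 33.04% of protein-coding CPM, with a median of 30.7%.

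**Figure D2:**
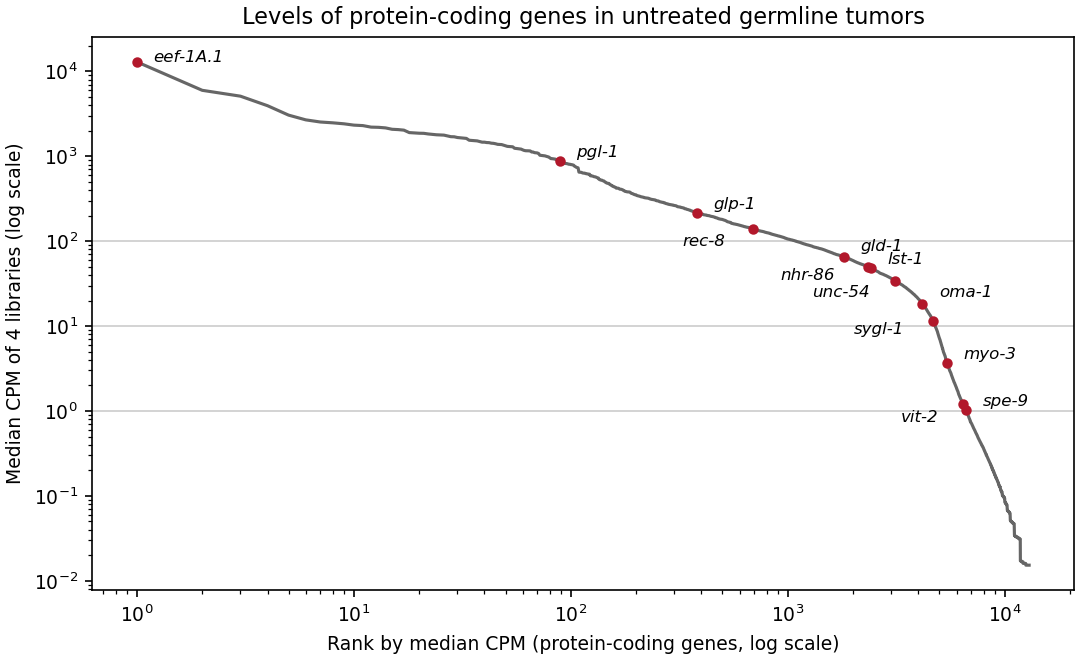
Median CPM of the 4 control libraries (y axis, log scale) against the rank of each protein-coding gene (x axis, log scale), with 13 genes marked and genes at a median of 0 not drawn. The curve bends down near 10 CPM, a level reached by 4779 genes. The germline genes pgl-1 and glp-1 rank above the muscle gene myo-3, the yolk gene vit-2 and the sperm gene spe-9. The order is mixed for other marked genes: the muscle gene unc-54 ranks above sygl-1 and oma-1, and the nuclear hormone receptor gene nhr-86 ranks above lst-1.

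Genes of translation filled the top of the ranking. The highest gene, eef-1A.1 (translation elongation factor 1-alpha), was at 7849, 16503, 9358 and 16809 CPM. The next nuclear gene in the ranking was eef-2, the factor that moves the ribosome along the message, at 3146, 6604, 3607 and 6628 CPM. For both, controls 2 and 4 were alike and controls 1 and 3 lower, in rescaled CPM as well. Of the 20 highest nuclear genes, 14 encode ribosomal proteins by their names and the others are eef-1A.1, eef-2, rack-1 (a ribosome-bound scaffold), pab-1 (poly(A)-binding protein) and the chaperones hsp-90 and hsp-1. Of 76 genes listed as cytoplasmic ribosomal proteins, 74 were detected and 71 reached 100 CPM, with a list median of 1101 CPM. The list does not hold every such gene. Its highest member was at a median of 2686 CPM, below rla-0 at 3941 CPM. The chaperone hsp-90, listed as daf-21 in the deposited table, had 1828, 3672, 2437 and 4418 CPM, and hsp-1, a constitutive Hsp70, had 1135, 2897, 1701 and 3494 CPM. Per kb of exon, eef-1A.1 was again highest at 8413 CPM per kb, and 3 histone genes joined the first 10: his-60 (5745), his-64 (4954) and his-59 (4320.5 CPM per kb).

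Inducible heat shock genes were below 1 CPM, beside the abundant constitutive chaperones. Of 22 heat shock and chaperone genes, 12 were detected (54.5%, against 33.1% of all protein-coding genes) and 4 had no read in any library. The small heat shock gene hsp-16.2 had 0.101, 0, 0.153 and 0.103 CPM and the inducible Hsp70 gene hsp-70 had 0.235, 0.257, 0.214 and 0.618 CPM. By contrast sip-1, a small heat shock protein of oocytes and embryos, had 25.8, 73.5, 42.6 and 70.5 CPM, lowest in control 1. Copies of hsp-16 share sequence, so single copies are uncertain.

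The Notch pathway and the regulators of germline stem cells were detected almost completely, 17 of 18 genes against 33.1% of all protein-coding genes, with a list median of 42.6 CPM. The receptor gene glp-1 (WBGene00001609, chromosome III, 9092241 to 9099698 in WBcel235) had 136, 324, 148 and 283 CPM, with a mean of 223 ± 94.9 CPM, SD, n = 4. Transcripts of lag-1 (WBGene00002245, chromosome IV, 6095407 to 6110655 in WBcel235), the DNA-binding factor of the pathway, were at 30.2, 74.99, 33.97 and 65.3 CPM (51.1 ± 22.4 CPM, SD, n = 4). In both genes controls 2 and 4 lay above controls 1 and 3, and this order held in rescaled CPM, at 323, 518, 336 and 451 for glp-1 and 71.8, 119.8, 77.0 and 104.2 for lag-1. The protease sup-17 that cuts the receptor had a median of 75.3 CPM, and the coactivator gene sel-8, the Mastermind of the worm, had 12.1 CPM. Of the presenilin pair, hop-1 stood at 17.9 CPM per kb and the X-linked sel-12 at 0.106 CPM per kb, with 20 reads for sel-12 over all 4 libraries.

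The direct Notch targets lst-1 and sygl-1, which encode partners of the FBF proteins in stem cell maintenance, were present in all 4 libraries. lst-1 (WBGene00003083, chromosome I, 10588501 to 10590465 in WBcel235) had 38.8, 89.5, 35.01 and 57.1 CPM (55.1 ± 24.9 CPM, SD, n = 4). sygl-1 (WBGene00012104, chromosome I, 12483809 to 12486235 in WBcel235) had 9.39, 29.8, 8.68 and 13.4 CPM (15.3 ± 9.89 CPM, SD, n = 4). Control 2 was the highest library for both. In rescaled CPM lst-1 was at 92.3, 143, 79.4 and 91.1 and sygl-1 at 22.3, 47.7, 19.7 and 21.3, so that the other 3 libraries were close together for sygl-1. Per kb, lst-1 was at 34.5 and sygl-1 at 13.6 CPM per kb.

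The repressors that act beside them were well expressed. fbf-2 and fbf-1, the Pumilio proteins that hold back meiotic messages, had medians of 60.8 and 43.03 CPM per kb. The RNA-directed RNA polymerase gene ego-1, which promotes germline proliferation, had 207, 464, 220.1 and 424 CPM and stood at 60.8 CPM per kb. lip-1, a MAP kinase phosphatase gene, was the lowest member on an autosome, per kb too (1.39 CPM per kb), at 1.68, 4.55, 2.60 and 3.81 CPM.

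All 12 regulators of meiotic entry were detected, each at 10 CPM or more, with a list median of 65.02 CPM. gld-1 (WBGene00001595, chromosome I, 7695681 to 7698222 in WBcel235), whose product is a translational repressor, had 39.5, 86.7, 44.4 and 85.95 CPM (64.1 ± 25.7 CPM, SD, n = 4). gld-2 (WBGene00001596, chromosome I, 6369748 to 6386194 in WBcel235), the catalytic part of a cytoplasmic poly(A) polymerase, had 22.04, 55.9, 27.8 and 50.1 CPM (38.96 ± 16.6 CPM, SD, n = 4). Reads counted for both mutated genes were thus present in every library. They were higher in controls 2 and 4 also in rescaled CPM (93.8, 139, 101 and 137 for gld-1 and 52.4, 89.3, 63.0 and 79.99 for gld-2). The transgene holds the gld-1 promoter, and whether any reads from the transgene were counted as gld-1 was not tested. The partners gld-3 (137 CPM) and rnp-8 (64.9 CPM) of GLD-2, and nos-3 (198 CPM), a Nanos protein of the GLD-1 branch, were also detected. Per kb, gld-2 was the lowest of the 12 at 6.20 CPM per kb, below prom-1, an F-box protein gene of early meiotic prophase, at 12.7 CPM per kb. prom-1 had 18.3, 27.8, 20.5 and 28.4 CPM; its exons overlap those of phac-1, and whether reads were counted by strand is not known from the sources at hand.

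Most cell division genes were detected. Of 52 mitotic cell cycle genes 47 were detected, all 47 at 10 CPM or more, with a list median of 86.2 CPM, and all 39 DNA replication genes were detected with a list median of 78.9 CPM. The replicative helicase gene mcm-4 had 175, 447, 220.2 and 437 CPM, the sliding clamp gene pcn-1 had 155, 220.3, 168 and 230.3 CPM, and the topoisomerase II gene top-2 had 292, 799, 351 and 761 CPM. The centrosome scaffold gene spd-5 had 243, 473, 241 and 437 CPM. In rescaled CPM, mcm-4, top-2 and spd-5 were still higher in controls 2 and 4, whereas pcn-1 was nearly level at 369, 352, 382 and 367. The cyclin-dependent kinase gene cdk-1 had 109.9, 118, 116 and 131 CPM. Its rescaled CPM of 261, 189, 264 and 209 was higher in controls 1 and 3.

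The 5 undetected mitotic genes belong to the entry into the cycle from G1 and to 1 gene family. Cyclin D gene cyd-1 had 2 reads and its kinase cdk-4 had 4 reads over all 4 libraries, at or near the limit that a count of 0 allows. The inhibitor gene cki-1 had 0.369, 0.385, 0.245 and 0.275 CPM, and its paralogue cki-2 had 6.84, 12.3, 7.89 and 12.7 CPM; per kb they stood at 0.398 and 6.81 CPM per kb. Among the phosphatases that activate CDK1, cdc-25.1 stood at 79.9 CPM per kb, against 0.0147 for cdc-25.2 and 0.0151 CPM per kb for cdc-25.3. Cyclin E gene cye-1 was detected at a median of 66.8 CPM and cdk-2 at 13.2 CPM.

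Genes of meiotic chromosomes were also all detected, beside those of mitosis. Of 26 genes of the meiotic axis and of synapsis, 26 were detected and 25 reached 10 CPM, with a list median of 55.2 CPM. The meiotic cohesin gene rec-8 had 78.3, 191, 94.0 and 186 CPM. The axis gene htp-3 had a median of 115 CPM. him-3, another axis protein gene, had 52.9, 50.3, 48.9 and 55.5 CPM. These values are close together, but in rescaled CPM they were 126, 80.4, 111 and 88.5, higher in controls 1 and 3. Among the central region genes of the synaptonemal complex, syp-6 (54.27) and syp-5 (35.98) were highest per kb and syp-1 (3.72 CPM per kb) was lowest. The near-identical htp-1 and htp-2 had medians of 66.2 and 25.35 CPM per kb, a division that depends on how shared reads were counted. lab-1, a protector of cohesion at the long arm of the bivalent, was the member under 10 CPM, at 6.58, 7.79, 7.22 and 6.80 CPM.

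The 35 genes of meiotic breaks and crossovers were all detected, 34 of them at 10 CPM or more. spo-11, whose product makes the meiotic double-strand breaks, had 55.7, 55.0, 54.297 and 56.5 CPM. The highest library was 1.04 times the lowest in CPM, and 1.51 times in rescaled CPM (132, 87.8, 123 and 90.2), with controls 1 and 3 high. The exons of spo-11 overlap those of enpl-1 (median 184 CPM). The recombinase gene rad-51 had 59.7, 78.1, 61.4 and 76.8 CPM, and the checkpoint kinase genes atl-1 and atm-1 had medians of 30.6 and 20.2 CPM per kb. Of the genes that mark the sites of crossovers, cosa-1 had 14.3, 24.4, 16.8 and 22.8 CPM, and among the ring finger genes zhp-1 to zhp-4 the medians were 23.4 (zhp-3), 21.2 (zhp-1), 12.9 (zhp-2) and 4.15 CPM per kb (zhp-4).

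Of 53 germ granule and small RNA genes 44 were detected, with a list median of 97.8 CPM. pgl-1 (WBGene00003992, chromosome IV, 6974441 to 6977318 in WBcel235), a core P granule protein, had 594, 1156, 660.2 and 1096 CPM and ranked 89th among protein-coding genes. The granule helicase gene glh-1 had 307, 558, 323 and 569.9 CPM. Germline Argonautes were abundant, with medians of 187 (wago-1), 148 (prg-1, the Piwi protein), 143 (csr-1) and 114 CPM per kb (hrde-1). The list was chosen with earlier results of these data known, so these levels describe its members and do not check the labelled tissue, germline.

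Of the 9 undetected members of that list 6 are X-linked: meg-1, meg-2, meg-3 and meg-4, which act in the granules of the early embryo, the somatic Argonaute alg-1 and nrde-3. Of these 6, meg-4 had 0.235, 0.642, 0.153 and 0.962 CPM. The others were the Argonaute genes alg-3 and alg-4, which act in spermatogenesis and had 3 and 23 reads over the 4 libraries, and alg-2 at 0.235, 0.930, 0.397 and 1.17 CPM.

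Regulators of germline chromatin were detected for 29 of 33 genes, with a list median of 68.5 CPM. The Polycomb-like mes-2 and the H3K36 methyltransferase gene mes-4 had medians of 36.3 and 33.7 CPM per kb. The histone variant gene htz-1 reached 295 CPM per kb. Among the linker histones, hil-5 (272), hil-4 (147) and hil-2 (82.3 CPM per kb) were above hil-1 (0.567) and hil-3 (0.335 CPM per kb), and hil-7 had no read. Of 72 genes named as histones (his) 21 were detected (29.2%, near the 33.1% of all protein-coding genes) and 21 had no read. Their copies are near-identical, so the division of reads among them is uncertain.

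In the apoptosis list, 20 of 25 genes were detected. The core machinery was present at similar medians, ced-3 (12.1), ced-4 (15.6) and ced-9 (24.7 CPM per kb), and the p53 gene cep-1 had 106, 135, 87.04 and 121.6 CPM. The BH3-only activators were not detected: egl-1 had 0.436, 0.257, 0.367 and 0.343 CPM and ced-13 had 0 reads.

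Among sex determination genes, 22 of 28 were detected. tra-2 and tra-1, which promote female fate, had medians of 19.8 and 15.3 CPM per kb. fog-2, whose F-box product acts with GLD-1 to allow spermatogenesis in hermaphrodites, had 36.03, 37.7, 34.5 and 37.3 CPM, which in rescaled CPM was 85.6, 60.2, 78.3 and 59.4. fem-3, which directs male fate, had 18.6, 25.18, 19.6 and 23.6 CPM. At the end of the pathway the 2 genes that specify sperm differed, since fog-1 had 4.495, 9.49, 6.51 and 8.17 CPM and fog-3 had 0.0671, 0, 0 and 0.0343 CPM. The 3 reads of fog-3 over the 4 libraries stand at the limit that a count of 0 would allow. The male signal her-1 had no read, and xol-1 had 2.

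Oocyte and maternal genes were detected for 46 of 47 members, at a list median of 26.9 CPM. Per kb, the cold-shock domain genes cey-3 (214) and cey-2 (180.5 CPM per kb) led the list, followed by cbd-1, a chitin-binding protein gene of the eggshell (89.9 CPM per kb), which had 194, 530.1, 237 and 523 CPM. The yolk receptor gene rme-2 had 49.8, 108, 53.0 and 95.9 CPM. In rescaled CPM, cbd-1 and rme-2 were still higher in controls 2 and 4, whereas cey-3 was higher in controls 1 and 3 (406, 381, 430.4 and 373).

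Genes that act in oocyte maturation were also detected. oma-1 had 9.49, 22.998, 13.8 and 23.97 CPM and oma-2 had 14.8, 28.002, 14.5 and 31.8 CPM. lin-41, which prevents early maturation, had 13.4, 37.2, 20.2 and 40.5 CPM. Per kb, oma-1 (10.23) and oma-2 (13.9) were under cbd-1 (89.9 CPM per kb). Of the PUF genes of oogenesis, puf-5 stood at 5.30, puf-6 at 3.04 and puf-7 at 0.952 CPM per kb. The undetected member was nos-2, a maternal Nanos gene, at 0.604, 1.06, 0.611 and 0.893 CPM. Its exons overlap those of him-14 (median 72.3 CPM), and reads of the overlap cannot be assigned here.

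Most sperm genes were not detected. Of 44 spermatogenesis genes 6 were detected (13.6%, against 33.1% of all protein-coding genes) and 13 had no read in any library, and the list median was 0.0172 CPM. The count was 10 in rescaled CPM and 10 at a threshold of 0.5 CPM. A rescaled level of 1 is near 0.5 deposited CPM, so these are not separate checks. Of 31 major sperm protein genes, which encode the motility protein of nematode sperm, 0 were detected and 28 had no read. Of 38 small sperm-specific genes 1 was detected, ssq-4, at 15.1, 34.4, 31.1 and 12.7 CPM, and 24 had no read. The sperm phosphatase gene gsp-3 had 0 reads and its near-identical copy gsp-4 had 3. As these are bulk samples, fewer cells of a type and less RNA per cell cannot be told apart.

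Of the 6 detected spermatogenesis genes, 3 reached 10 CPM. zipt-7.1, a zinc transporter gene used in sperm activation, had 34.9, 52.4, 36.5 and 57.2 CPM. spe-44, a transcription factor that switches on sperm genes in meiotic germ cells, had 10.3, 17.2, 12.3 and 16.7 CPM. spe-6, a casein kinase-like gene, had 8.82, 13.2, 9.08 and 11.7 CPM. These 3 were above the sperm surface gene spe-9 at 0.570, 1.15, 0.887 and 1.51 CPM and the membrane fusion gene fer-1 at 0.134, 0.738, 0.428 and 0.378 CPM, per kb as well (26.5, 8.88 and 8.18 against 0.504 and 0.0643 CPM per kb). The calcium channel gene spe-41 had a median of 5.12 CPM and spe-47 one of 1.78 CPM.

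**Figure D3:**
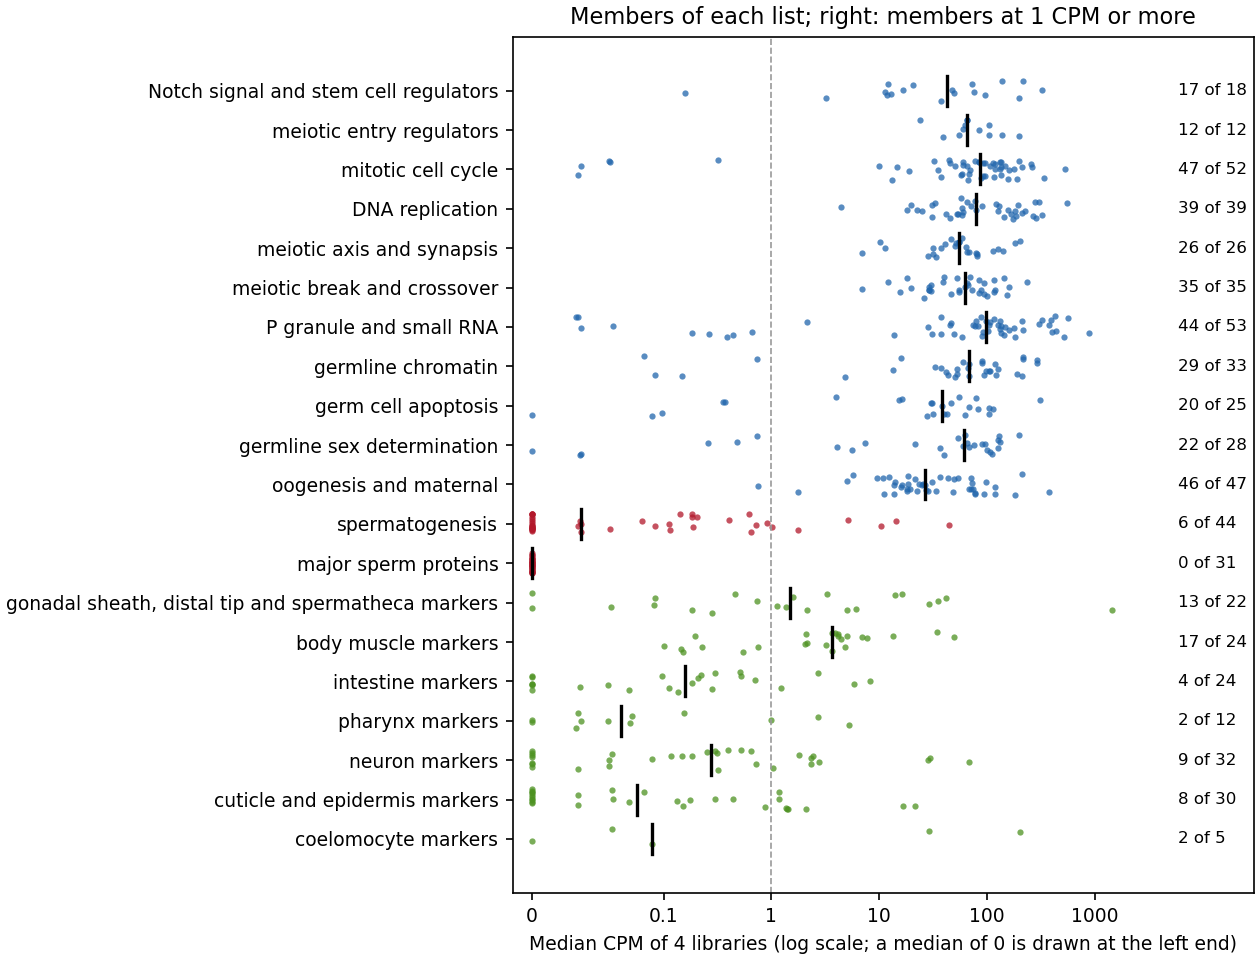
Median CPM of the 4 control libraries (x axis, log scale) for each member of 20 lists (rows), with the list median as a black bar and the number of members at 1 CPM or more at the right. Germline and cell division lists (blue) lie mostly between 10 and 1000 CPM, sperm lists (red) mostly below 1 CPM, and markers of somatic tissues (green) mostly below 10 CPM.

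**Figure D4:**
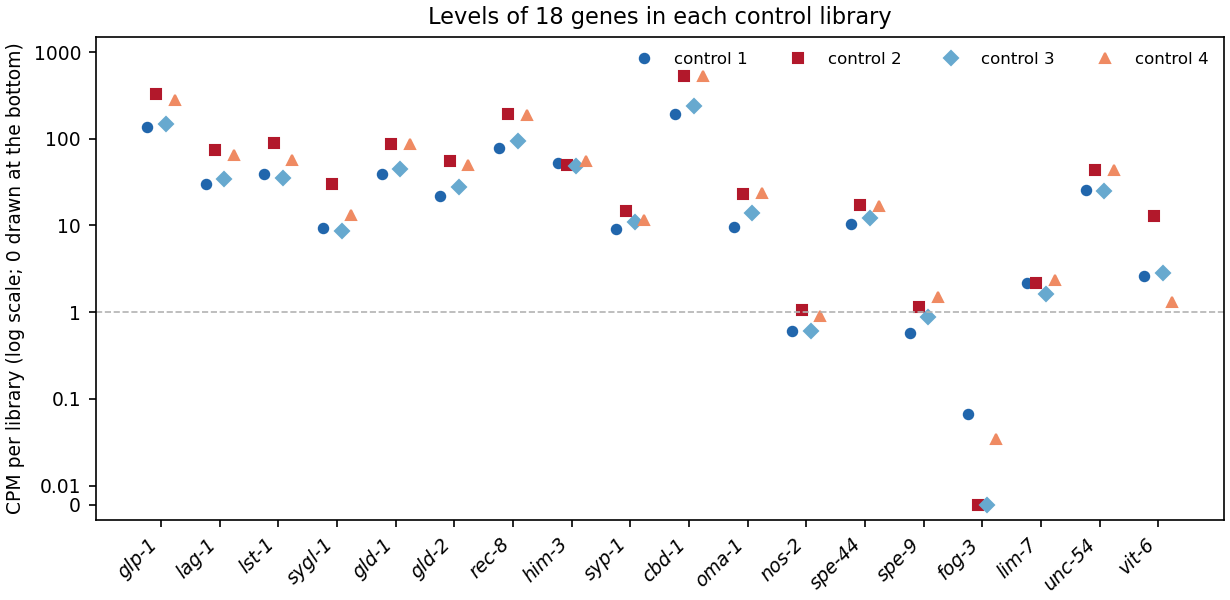
CPM (y axis, log scale) of 18 genes in each of the 4 control libraries (points). On this deposited scale controls 2 and 4 lie above the other libraries in most genes, the libraries are close together for him-3, fog-3 has reads in controls 1 and 4 alone, and vit-6 is highest in control 2.

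Markers of somatic tissues were used to ask what else the dissected tumors held. Over 9 somatic lists, 75 of 405 genes (18.5%) were detected, against 330 of 361 (91.4%) over 11 lists of germline and cell division. Those 11 lists leave out the sperm lists. In the sperm lists, 6 of 44 spermatogenesis, 0 of 31 major sperm protein and 1 of 38 small sperm-specific genes were detected. The somatic count includes 15 of 157 cuticle collagens and 6 of 107 neuropeptide precursors. In the 7 lists of tissue markers alone, 55 of 149 genes (36.9%) were detected, against 33.1% of all protein-coding genes. The lists differ in how they were composed, so these shares describe the lists and are not a comparison of tissues.

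Somatic gonad markers had 13 of 22 genes detected (59.1%, against 33.1% of all protein-coding genes), with a list median of 1.48 CPM. fln-1, a filamin that crosslinks actin, had 719.8, 2296, 884 and 2048 CPM, the highest of the list also per kb (183 CPM per kb). It made up most of the summed level of the list (839, 2495, 1002 and 2255 CPM). Which cells gave the reads of fln-1 was not tested. The other high members were the basement membrane collagen genes let-2 (22.7, 57.96, 25.25 and 62.9 CPM) and emb-9 (29.2 CPM), and inx-8, a gap junction subunit of the gonadal sheath, at 37.5, 33.6, 31.8 and 37.6 CPM. The sheath transcription factor lim-7 had 2.15, 2.18, 1.62 and 2.34 CPM. Of the Notch ligand genes in this list, apx-1, which is also known from the germline, had 10.4, 21.3, 12.7 and 19.8 CPM and the distal tip cell ligand lag-2 had 0.101, 0.0962, 0.0611 and 0.0687 CPM. The somatic gonad regulator fkh-6 had a median of 0.0817 CPM, and the spermatheca gene sth-1 had 3 reads over the 4 libraries.

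Body wall muscle had 17 of 24 markers detected (70.8%, against 33.1% of all protein-coding genes), at a list median of 3.66 CPM. unc-54, the major muscle myosin, had 25.6, 43.2, 25.01 and 43.7 CPM, and myo-3, the other body wall myosin, had 2.68, 4.68, 2.32 and 4.64 CPM. The chaperone gene unc-45, with 32.3, 70.3, 35.7 and 64.4 CPM, also serves non-muscle myosin. The muscle determination factor hlh-1 was at 0.302, 0.321, 0.153 and 0.137 CPM, and the troponin genes tni-3 and tnt-2 had medians of 0.102 and 0.145 CPM. Whether muscle RNA or sheath RNA gave these levels was not tested, since the myoepithelial sheath is known to use some of the same genes.

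Intestine had 4 of 24 markers detected (16.7%, against 33.1% of all protein-coding genes), none of them at 10 CPM. Its defining factor elt-2 had 5 reads over the 4 libraries, elt-7 had 1, and the esterase gene ges-1 had 0.168, 0.192, 0.214 and 0.172 CPM. The detected markers included itr-1, an inositol trisphosphate receptor used in many tissues including the sheath, at 5.94, 10.6, 5.44 and 11.6 CPM. The yolk protein gene vit-6 had 2.58, 12.8, 2.84 and 1.305 CPM and vit-2 had 1.04, 4.43, 1.41 and 0.618 CPM, both highest in control 2. The fat-binding protein gene lbp-6 had 7.01, 5.36, 6.45 and 5.29 CPM.

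Markers of 4 other tissues are set beside the 33.1% of all protein-coding genes. Of 12 pharynx markers 2 (16.7%) were detected, tni-4 (5.97, 4.78, 4.25 and 5.67 CPM, with exons that overlap another gene) and myo-5 (2.42, 3.24, 1.53 and 3.06 CPM), and the pharyngeal determination genes pha-4 (0.0492 CPM) and ceh-22 (0 reads) were not. Of 32 neuron markers 9 (28.1%) were detected, among them unc-18 (44.3, 109, 46.7 and 91.0 CPM) and snb-1 (17.8, 34.4, 25.01 and 35.4 CPM), which serve vesicle fusion. The neuron-specific rgef-1 and unc-17 had 4 reads and 1 read over the 4 libraries, and mec-7 and tph-1 had medians of 0. Of 30 cuticle and epidermis markers 8 (26.7%) were detected, led in CPM and per kb by the transcription factors lin-26 (21.7 CPM, overlapping lir-1) and nhr-23 (10.1, 20.02, 13.1 and 21.4 CPM). Of 5 coelomocyte markers 2 (40.0%) were detected, mca-3 (108, 275, 132 and 285 CPM), a calcium pump, and the lysosomal channel gene cup-5 (28.9 CPM), while unc-122 (0.0787 CPM), cup-4 (0.0332 CPM) and lgc-26 were not.

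Cuticle collagens, neuropeptide precursors and nuclear hormone receptors were seldom detected, beside the 33.1% of all protein-coding genes. Of 157 cuticle collagens 15 were detected (9.55%; 27 in rescaled CPM) and none reached 10 CPM. Of 107 neuropeptide precursors 6 were detected (5.61%). The highest was nlp-36 (7.01, 8.08, 9.997 and 9.41 CPM), whose exons overlap the abundant dars-1. Of 271 nuclear hormone receptors 18 were detected (6.64%; 28 in rescaled CPM), and nhr-86 was the highest at 42.9, 56.4, 41.7 and 56.6 CPM, above the next member nhr-66 also per kb (35.1 against 4.70 CPM per kb).

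The X chromosome had the lowest share of detected genes of any chromosome. Of 2724 protein-coding genes on X, 242 (8.88%) were detected, against 6401 of 17208 (37.2%) on the autosomes. In rescaled CPM, 379 X-linked and 7044 autosomal genes reached 1, which is 13.9% and 40.9%. In deposited CPM the shares of the autosomes ran from 19.03% (chromosome V) to 57.6% (chromosome III). Per library the share on X was 8.52%, 9.65%, 7.78% and 9.62%, and on the autosomes 36.3%, 37.9%, 36.5% and 37.6%. At 10 CPM the counts were 22 genes (0.808%) on X and 4739 (27.5%) on the autosomes. The detected genes were also low, with a median of 1.17 CPM per kb on X against 21.8 CPM per kb on the autosomes, and X held 0.353%, 0.318%, 0.315% and 0.317% of protein-coding CPM. These shares describe genes within 4 libraries and carry no test.

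**Figure D5:**
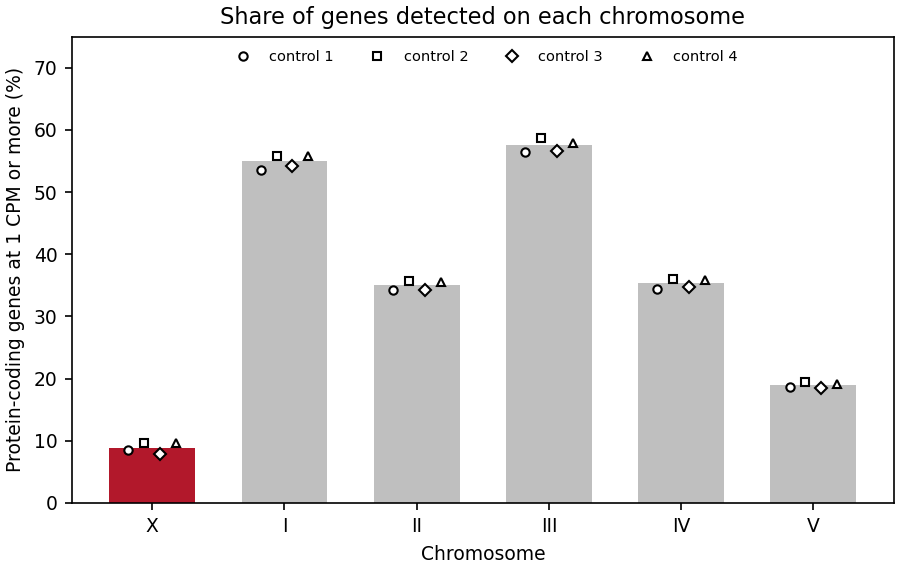
Share of the protein-coding genes of each nuclear chromosome at 1 CPM or more (y axis, percent; bars from the median of the 4 control libraries, points for the single libraries). X reaches 8.88%, against 19.03% to 57.6% on the autosomes, and the 4 libraries lie close together on each chromosome.

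X-linked genes were also seldom detected within the germline lists. The 11 lists of germline and cell division leave out the sperm lists. Over the 11 lists, 3 of 18 X-linked genes were detected (lin-15B, lin-15A and sdc-1), against 327 of 343 genes elsewhere. The X-linked members include meg-1 to meg-4 of the early embryo and the somatic Argonaute alg-1. Members were chosen with earlier results of these data known, so this contrast depends on that choice and does not test the X result. The undetected X-linked genes included the histone demethylase utx-1 (0.335, 1.35, 0.153 and 1.13 CPM), the heterochromatin gene hpl-1 (0.134, 0.0962, 0.0611 and 0.0687 CPM) and the dosage compensation gene sdc-2 (0.335, 0.866, 0.489 and 0.481 CPM). lin-15B, a repressor of germline genes in somatic cells, was the highest of the 3 at 6.81, 21.2, 8.35 and 18.6 CPM; it shares an operon and overlapping annotation with lin-15A. The X-linked genes that ranked first were picked after their values were seen: C39D10.7 at 70.7, 182, 88.05 and 192 CPM, and tbh-1, the octopamine synthesis gene known from interneurons and gonadal sheath, at 97.9, 113, 88.8 and 126 CPM.

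Some paralogous pairs set an X-linked copy beside an autosomal one. The families were chosen for having a germline member, with earlier results of these data known, so they do not test the X result. Over these families 40 of 53 genes were detected (75.5%, against 33.1% of all protein-coding genes). Of the 13 undetected genes 6 were X-linked, of 10 on X, and 7 were not. rpl-11.1 stood at 4107 and its X-linked copy rpl-11.2 at 51.9 CPM per kb. rpl-25.2 stood at 1656 and X-linked rpl-25.1 at 1.52 CPM per kb. The same order held for pab-1 (868) and X-linked pab-2 (0.470 CPM per kb), and for eef-1A.1 and X-linked eef-1A.2 (5.20 CPM per kb). Of the histone H3.3 genes, his-72 was at 143 and X-linked his-71 at 0.375 CPM per kb.

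In larger families the autosomal copies also led. The cap-binding genes ife-1 (382), ife-3 (205) and ife-5 (29.9) exceeded X-linked ife-2 (1.01) and ife-4 (0.147 CPM per kb). The glycolytic genes gpd-1 (21.6) and gpd-4 (26.3) exceeded X-linked gpd-2 (0.429) and gpd-3 (0.563 CPM per kb), although these copies are very alike in sequence. In autosomal pairs, cyc-2.1 (cytochrome c) had 668 CPM per kb and cyc-2.2 no read, and ant-1.1, the mitochondrial ATP carrier, stood at 912 against 0.0685 CPM per kb for ant-1.2. The innexins inx-14 (43.8, 63.0, 49.8 and 65.2 CPM) and inx-22 (27.7, 50.3, 27.9 and 44.8 CPM), which form the germline side of gap junctions with the sheath, were both detected.

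Spread between libraries was measured by the ratio of the highest to the lowest library among genes at 10 CPM or more. dpy-21, a histone demethylase of dosage compensation, had 12.9, 57.1, 22.2 and 62.0 CPM, the widest ratio in CPM at 4.80. sdc-3, of the same complex, had 20.9, 89.1, 40.1 and 79.8 CPM, and the closely similar histone reader genes set-9 and set-26 had 60.6, 243, 87.04 and 229 CPM and 20.1, 80.2, 24.9 and 59.1 CPM. In each, controls 2 and 4 were above controls 1 and 3. After rescaling to protein-coding reads the ratio of dpy-21 was 3.22 and that of sdc-3 2.87, and dpy-21 was the 1 gene that stayed among the 10 of widest spread. The widest rescaled ratios were those of F26A10.2 (5.74), an X-linked gene with 26.9, 14.7, 14.1 and 6.97 CPM, and ZK54.3 (4.34), also X-linked, with 103, 63.0, 69.5 and 35.2 CPM. Both were lowest in control 4, but this was not particular to X. The autosomal genes Y54E10A.13 (3.99), Y17D7C.2 (3.70), mec-1, C16C8.18, grl-16, ssq-4 and sftd-3 were also among the 10 widest rescaled ratios and lowest in control 4. The part of gene length in the remaining spread was not tested gene by gene.

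Among genes far higher in a single library than in the others, iglr-3 reached the highest level. iglr-3 (WBGene00021353, chromosome I, 2085605 to 2093796 in WBcel235), annotated with immunoglobulin and leucine-rich repeat domains, had 18908, 4.49, 3.88 and 4.81 CPM. Its exons overlap those of pcyt-2.1, which had a median of 24.6 CPM. The 563630 reads of iglr-3 in control 1 made up 4.49% of that library's protein-coding CPM, the first rank in it, while its rank by median was 5273. Without it the protein-coding share of control 1 was 40.2% in place of 42.1%, and its 100 highest genes held 33.5%. The gene was singled out after its values were seen, and the source of these reads was not tested.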

How the data were processed

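Total RNA was extracted with Trizol, depleted of ribosomal RNA and made into libraries with a Kapa hyper prep kit, per the labels' protocols. The authors deposited a signal per gene, named CPM in the file header; the submitters' processing notes list, with no role or setting, limma, edgeR, featureCounts 1.4.5, Subread and STAR 2.0.4b. Genome build, annotation release and the handling of strand or multiply matching reads are not stated in the labels or file headers. From 1 table the 4 control columns were used; its 6 auxin columns and another table, which holds no control library, were not. The 46998 lines gave 46536 genes with 1 line kept per gene, and 20112 were protein-coding. All values came out as whole reads (100%, tolerance 0.1 read), so reads were recovered for depth and floors. With a single group there is no comparison, so no count test was run.

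Exon lengths, coordinates and overlaps (at least 1 base) came from Ensembl 115 (WBcel235), which held 19944 of the protein-coding genes. Genes were named by rule: glp-1, lag-1, gld-1, gld-2, lst-1 and sygl-1, the 20 highest nuclear genes by CPM and the 10 highest per kb, the 3 highest and 2 lowest of each of 30 lists, the 10 of widest spread, and members of paralogue families. All other genes were named after their values were seen. The members and lists were chosen with earlier results of these data known. Alternatives were rescaling to protein-coding reads, the mean in place of the median, each library left out, controls 2 and 4 alone, thresholds of 0.5 and 5 CPM, and 1 CPM per kb. The spread after rescaling was an alternative added after the data were seen. Python 3.11.15, pandas 2.3.3, numpy 2.4.6 and matplotlib 3.10.9 were used, and the scripts were tested on simulated data.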

Additional observations from a re-analysis of the deposited data

Results flagged for a closer look

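In a group of 4 libraries, a gene is given here when its highest or lowest library lay apart from the other libraries beyond Dixon's 95% critical value, among named genes whose highest library reached 1 CPM. Of 242 genes examined, 14 met it, 9 of them through control 1, 3 through control 2, and 1 each through controls 3 and 4. Chance alone marks about 1 in 20 groups, and the genes below other than vit-6 and ife-2 were picked because 1 library was high, so they meet the criterion by the way they were chosen. The criterion was applied to deposited CPM alone. Genes apart only in rescaled CPM, where sygl-1 was highest in control 2, were not looked for.

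Control 1 was the high library for iglr-3 (18908 CPM, the others 3.88 to 4.81 CPM), tyr-4, a tyrosinase (19.7 CPM, the others at most 0.192 CPM), and ife-2, a cap-binding gene (1.64 CPM, the others 0.790 to 0.887 CPM). It was also high for cuticle collagens: col-119 (7.48 CPM, the others 1.305 to 1.41 CPM), col-140 (6.98 CPM, the others 0.738 to 0.978 CPM), col-8 (4.73 CPM, the others 0.417 to 0.825 CPM) and col-19 (2.55 CPM, the others 0.385 to 0.481 CPM). The pharyngeal myosin genes myo-1 (2.31 CPM, the others 0.0343 to 0.183 CPM) and myo-2 (1.68 CPM, the others 0 to 0.0321 CPM) were also highest there.

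Control 2 was the high library for the yolk gene vit-6 (12.8 CPM, the others 1.305 to 2.84 CPM), wht-1, an ABC transporter gene (27.01 CPM, the others 0 to 0.0671 CPM), and sox-4, a transcription factor gene (7.89 CPM, the others 0 to 0.201 CPM). Control 3 stood apart for F27D9.3 (5.99 CPM, the others 0 to 0.0671 CPM) and control 4 for C47F8.7 (4.84 CPM, the others 0.581 to 0.872 CPM). The source of these single-library levels was not tested.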

How the results depend on the processing

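Over 40 counts and shares, 364 values under an alternative stayed within 1.5 times the main count, or within the spread between libraries, and 25 moved further. With each library rescaled to its protein-coding reads, the members at 1 CPM or more were 10 of spermatogenesis, 27 cuticle collagens and 28 nuclear hormone receptors, and 379 genes on X. At 0.5 CPM they were 10 of spermatogenesis, 7 intestine markers, 29 cuticle collagens and 28 nuclear hormone receptors, and 395 genes on X. At 5 CPM they were 2 intestine, 6 body muscle, 1 pharynx, 3 neuron, 2 cuticle and epidermis and 8 gonadal sheath, distal tip and spermatheca markers, 2 cuticle collagens, 1 neuropeptide precursor, 8 nuclear hormone receptors and 52 genes on X. At 1 CPM per kb they were 1 intestine, 1 pharynx, 5 neuron and 8 gonadal sheath, distal tip and spermatheca markers, and 161 genes on X. The 100 highest genes held 49.6% of protein-coding signal per kb. Rescaling and the threshold of 0.5 CPM are not separate checks of the counts, since a rescaled level of 1 is near 0.5 deposited CPM.

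Detected genes numbered 7455 after rescaling, which held all 6667, 6688 by the mean, 7506 at 0.5 CPM, 5216 at 5 CPM, 6369 per kb, 6815 in controls 2 and 4 alone, and 6558 to 6709 with a library left out. Levels of the 329 named genes moved by more than the spread between libraries in 276 cases, 262 of them under rescaling and 14 with controls 2 and 4 alone. Rescaling raises every nonzero level, because protein-coding genes held 42.1% to 62.7% of each library. The 262 cases therefore follow largely from the change of unit and do not measure dependence on the processing. No paired analysis was possible because the values come from 1 group and no test. Levels near 1 CPM rest on about 30 reads per library, and depth limits statements about genes below it. Shared reads of near-identical copies, overlapping exons and ribosomal RNA shares also limit single levels.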

Other observations

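All 12 protein-coding genes of the mitochondrial genome were detected, with a list median of 1191 CPM. The cytochrome c oxidase subunit gene ctc-1 had 5899, 5803, 6069.8 and 6361 CPM. In rescaled CPM it had 14019.9, 9272, 13765 and 10149, higher in controls 1 and 3, and the mitochondrial genes together held 4.55%, 2.62%, 4.31% and 2.69% of protein-coding CPM. ndfl-4, a subunit gene of complex I, had a median of 82.0 CPM. Among the actin genes, act-2 stood at 353 CPM per kb and X-linked act-4 at 4.37, and among the tubulins tba-2 stood at 476 and tbb-2 at 427 CPM per kb.

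Genes whose symbol is a sequence name made up 137 of the 1000 highest protein-coding genes (13.7%), 34.02% of the detected genes and 45.5% of all. Such a name does not mean that the product is unknown. For example, C37A2.7 (588 CPM) is annotated as 60S acidic ribosomal protein P2 and W01D2.1 (370 CPM) as ribosomal protein L37. The first in rank with a sequence name were Y37E3.8 and Y17D7C.2, at medians of 1697 and 1526 CPM. Y17D7C.2 had 1947, 1442, 1610.0 and 783 CPM, lowest in control 4.

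In control 1, 28 genes lay at 1 CPM or more and above 5 times each other library, 9 of them cuticle collagens, against 5 genes in control 2 and 2 each in controls 3 and 4. The summed level of the 157 cuticle collagens was 101, 70.3, 55.5 and 61.3 CPM, and that of the pharynx markers 14.2, 9.37, 6.91 and 9.99 CPM. Intestine markers summed to 19.2, 42.2, 19.96 and 21.5 CPM, highest in control 2, where vit-2 had its highest level (1.04, 4.43, 1.41 and 0.618 CPM). The part of these markers in the germline values was not tested.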
